A study of Mus musculus with 2 samples.

Results

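Extracellular ATP and NAD are handled at the surface of liver immune cells by a small set of receptors and enzymes, and 5 of their genes were followed here: P2rx7, Art2b, Cd38, Entpd1 and Nt5e. They were chosen by name and not by a filter on their values, but with earlier results of these data known. All 5 were found among the 13528 genes of the filtered single-cell count table. None of the 49 antibodies read in the same cells recognises a product of these genes, so every value below is a transcript level. The cells were liver CD45+ cells, the haematopoietic cells of the organ, from C57BL/6 mice labelled as 10 weeks old (the methods of the study give a somewhat younger age for liver cell preparations) and captured on the BD Rhapsody microwell platform, which tags each transcript with a molecular identifier (UMI). The TG mice carry dnTGFβRII, a dominant-negative form of the type II TGF-β receptor that is driven by the CD4 promoter and therefore acts in T cells, and are used as a model of primary biliary cholangitis. TG cells were captured in a pool with cells of IFN-γ ARE-Del-/- mice, and wild-type (WT) cells in a second pool with cells of P40-/-IL-2Ra-/- mice. The comparisons of genotypes and cell types use only the cells that the authors named TG or WT, and cells without a name are described at the end.

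ATP that leaves stressed or dying cells opens P2X7, the cation channel encoded by P2rx7, and sustained opening can kill the cell. On mouse T cells the channel can also be opened at low ATP by NAD, because the ADP-ribosyltransferase ARTC2.2, encoded by Art2b, attaches ADP-ribose from NAD to it. CD38 consumes NAD, CD39 (Entpd1) strips ATP and ADP to AMP, and CD73 (Nt5e) turns AMP into adenosine, which dampens T cells through the receptor encoded by Adora2a.

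The table held 4647 TG cells with 18498477 UMIs and a median of 3298 UMIs per cell, and 7282 WT cells with 22216379 UMIs and a median of 2653.5. There was 1 library per genotype, so the effect of genotype cannot be told apart from that of the capture library, no test across samples was possible, and the 95% intervals given cover counting error only. Levels are UMIs divided by the UMIs of all genes in the same group of cells and scaled to 1000000 (CPM), with exact Poisson intervals, and are compared within a gene, not between genes. Cell types and clusters are the authors' and were built from the RNA of these same cells, so differences between clusters are descriptions. In all, P2rx7 was read by 1478 UMIs in TG and 2165 in WT cells, Art2b by 1687 and 2825, Cd38 by 1070 and 1391, Entpd1 by 1239 and 1147, and Nt5e, the sparsest, by 187 and 488. Between the named cells of the libraries 36 barcodes were shared. In 6 classes, described next, the cells went against their name or differed in kind between libraries. CD4 T cells and macrophages also differed in makeup, as given with their ratios. The name macrophage was kept as given, although 47.7% of these TG cells and 57.1% of these WT cells held a UMI of the monocyte gene Ccr2. How far this class holds cells of other kinds was not tested. Of the TG cells named NK, 83.9% held a UMI of Cd3d, Cd3e or Cd3g, subunits of the T cell receptor complex, against 44.4% of the WT cells. Of the CD8αα T cells, 20 of 410 in TG and 82 of 194 in WT held a UMI of Trdc, the γδ T cell receptor constant chain. Among cells named mature B, cluster 17 held Cd3e at 728 CPM in TG cells and 609 CPM in WT cells beside the B cell gene Cd79a, whereas the main cluster 1 held Cd3e at 67.3 and 32.5 CPM. The class named monocyte was cluster 5 alone, and its markers went against the name: the neutrophil genes S100a8, S100a9 and Csf3r summed to 51789 CPM in TG and 32054 CPM in WT, against 446 CPM or less in every other class but neutrophils. Csf3r was seen in 97.5% and 98.1% of its cells and Ccr2, which marks classical monocytes, in 4.41% and 6.59%, and the monocyte list of Ly6c2, Ccr2 and Lyz2 summed to 2329 and 1757 CPM, below the 3032 and 7173 CPM of macrophages. It is called cluster 5 here. Cluster 7 of the CD8αβ T cells, in which Mki67 marks dividing cells, mixed lineages: it held Cd8b1, the CD8β chain, at 413 and 443 CPM in the TG and WT cells, 42 of the 46 TG and 50 of the 56 WT Foxp3 UMIs of the class, and 409 of its 445 TG UMIs of the NK cell receptor gene Ncr1. TG NKT cells held Cd4 at 634 CPM and WT NKT cells at 162 CPM, and the 6 genes of the NK and NKT list summed to 902 and 1456 CPM.

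The promoters of P2rx7 and Art2b are shown because their levels followed each other across cell types, and that of Nt5e because it differed most between TG and WT. Each is the 300 bases around an annotated start on its own strand, from RefSeq on GRCm38.p6: chr5:122643677-122643976 (+) and chr5:122650133-122650432 (+) for P2rx7, chr7:101581112-101581411 (-) for Art2b and chr9:88327359-88327658 (+) for Nt5e. The Art2b window surrounds the RefSeq start, which lies 4.44 kb inside the longer GENCODE span of the gene. Capitals mark matches on either strand to the RUNX motif TGTGGT or the KLF/SP motif GGGCGGG.
P2rx7, first start: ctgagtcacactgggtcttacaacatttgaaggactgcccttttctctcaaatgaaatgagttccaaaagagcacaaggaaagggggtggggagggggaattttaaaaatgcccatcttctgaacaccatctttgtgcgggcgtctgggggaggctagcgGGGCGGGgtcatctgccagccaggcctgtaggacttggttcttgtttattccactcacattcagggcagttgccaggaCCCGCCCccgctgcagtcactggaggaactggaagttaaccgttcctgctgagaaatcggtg
P2rx7, second start: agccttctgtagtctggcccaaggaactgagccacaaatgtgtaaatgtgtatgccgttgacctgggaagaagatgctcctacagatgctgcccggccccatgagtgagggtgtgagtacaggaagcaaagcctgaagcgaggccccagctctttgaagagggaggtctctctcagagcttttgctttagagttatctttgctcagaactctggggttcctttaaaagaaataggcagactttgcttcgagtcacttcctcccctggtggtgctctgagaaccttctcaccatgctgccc
Art2b: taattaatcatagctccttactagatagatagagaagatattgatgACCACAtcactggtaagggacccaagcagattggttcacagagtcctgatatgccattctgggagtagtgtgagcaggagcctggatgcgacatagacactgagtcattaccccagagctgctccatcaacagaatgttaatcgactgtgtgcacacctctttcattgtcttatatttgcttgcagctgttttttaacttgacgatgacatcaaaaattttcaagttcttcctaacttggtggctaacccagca
Nt5e: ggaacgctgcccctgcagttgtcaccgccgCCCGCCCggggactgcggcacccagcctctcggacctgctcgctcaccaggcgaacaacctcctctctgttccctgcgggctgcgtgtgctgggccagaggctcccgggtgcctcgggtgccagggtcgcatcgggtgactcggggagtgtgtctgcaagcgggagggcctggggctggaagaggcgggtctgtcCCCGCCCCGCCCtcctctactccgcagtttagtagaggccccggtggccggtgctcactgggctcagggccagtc
The KLF/SP letters were held by 25.6% of the 32851 promoters of the same length and occurred 2 times at the first P2rx7 start and 3 times at Nt5e, where the last 2 matches overlap. The RUNX letters were held by 16.8% of promoters and occurred 1 time at Art2b. The T-box motif AGGTGTGA (1.28% of promoters), the ETS motif CCGGAAGT (3.89%) and the GAS motif TTCNNNGAA (8.30%) had no match in these 4 windows. The Nt5e window was GC-rich, at 71.0% with 23 CpG, and that of Art2b GC-poor, at 42.3% with 3 CpG, against medians of 52.7% and 7 over all promoters. P2rx7 lies 16.1 kb from P2rx4, and Cd38 24.6 kb from its relative Bst1. Art2b lies 16.1 kb from the related Art2a-ps, whose transcript was 86.2% identical to it over 1203 aligned bases with an identical run of 125 bases. Art2a-ps was not analysed here, and Art2b values are uncertain to the extent that reads of the pair could not be separated.

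P2rx7, the ATP-gated channel, was highest in NKT cells, at 270.2 CPM (246 to 296) in TG and 241 CPM (229 to 253) in WT. CD8αα T cells came next, at 178 CPM (156 to 202) and 142 CPM (112 to 177). CD4 T cells followed with 118 CPM in TG and 61.6 CPM in WT, NK cells with 78.4 and 48.0 CPM, and CD8αβ T cells with 76.2 and 41.4 CPM. NKT, CD8αα and CD4 T cells thus kept this order with intervals that did not overlap in either library, while NK and CD8αβ T cells could not be ordered. A P2rx7 UMI was seen in 60.8% of TG and 45.8% of WT NKT cells, at medians of 3851.5 and 2860.5 UMIs per cell. After each cell was thinned to 1000 UMIs these shares were 24.9% and 21.6%. Mature B cells, taken as the background type, gave 2.06% and 2.95% before thinning, at medians of 2923 and 2044.5 UMIs per cell, and 0.562% and 0.803% after it.

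**Figure D1:**
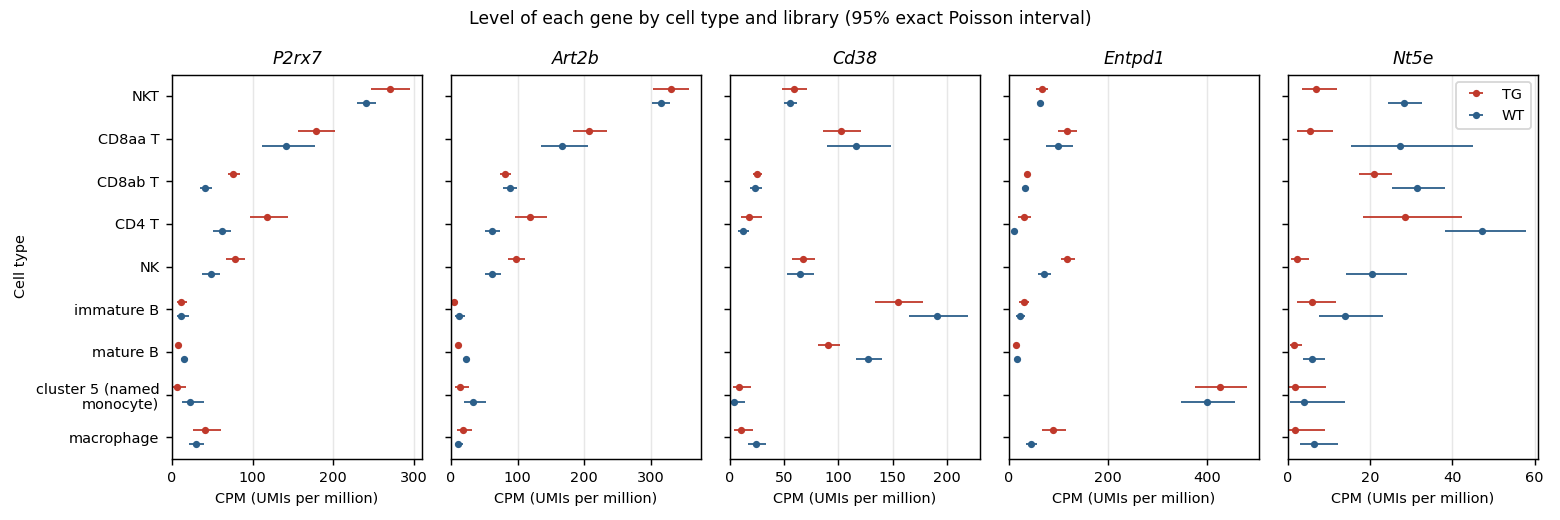
Level in CPM (x axis, from 0, with its own scale for each gene) of the 5 genes in 9 cell types (y axis) of the TG (red) and WT (blue) libraries, with 95% exact Poisson intervals. P2rx7 and Art2b are highest in NKT and next in CD8αα T cells, Cd38 in immature B cells at 155 and 191 CPM, Entpd1 in cluster 5, named monocyte, at 426 and 400 CPM, and Nt5e is lower in TG than in WT in most types.

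Art2b, which encodes the transferase that gates P2X7 with NAD, had nearly the same distribution. It stood at 330 CPM (303 to 358) in TG and 315 CPM (302 to 329) in WT NKT cells, and at 208 CPM (184 to 234) and 167 CPM (135 to 205) in CD8αα T cells. CD4 T cells held 118 and 61.6 CPM, equal to their P2rx7 UMI counts in both libraries, CD8αβ T cells 81.7 and 88.4 CPM, and NK cells 97.3 and 62.3 CPM. Art2b UMIs were seen in 63.5% of TG and 54.3% of WT NKT cells, against 2.43% and 3.88% of mature B cells. After thinning the NKT shares were 26.7% and 25.6% and those of mature B cells 0.749% and 1.07%.

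Across 25 cell type and library profiles, Art2b was the gene whose profile was most like that of P2rx7 among 7926 genes, with a Pearson r of 0.91, ahead of Cxcr3 (0.91), a chemokine receptor of effector T cells, and Abcb1a (0.90), a drug efflux pump. The profile most like that of Art2b was Abcb1a (0.94), followed by Ifng (0.94) and Il2rb (0.94), and P2rx7 ranked 11th. The profile most like that of Cd38 was Gem (0.89), of Entpd1 Tmem38b (0.82) and of Nt5e Ranbp9 (0.81). These profiles share libraries and clustering, so the values are descriptions without a p. Within NKT cells, the transcripts were also compared cell by cell at equal depth. At 1000 UMIs per cell, 26.1% of TG NKT cells with an Art2b UMI also held P2rx7, against 24.5% of those without, and in WT 20.8% against 21.9%. In CD8αβ T cells, which span naive to effector clusters, the thinned shares were 14.9% (7.66% to 25.0%) against 6.98% in TG and 7.46% (2.47% to 16.6%) against 2.39% in WT.

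**Figure D2:**
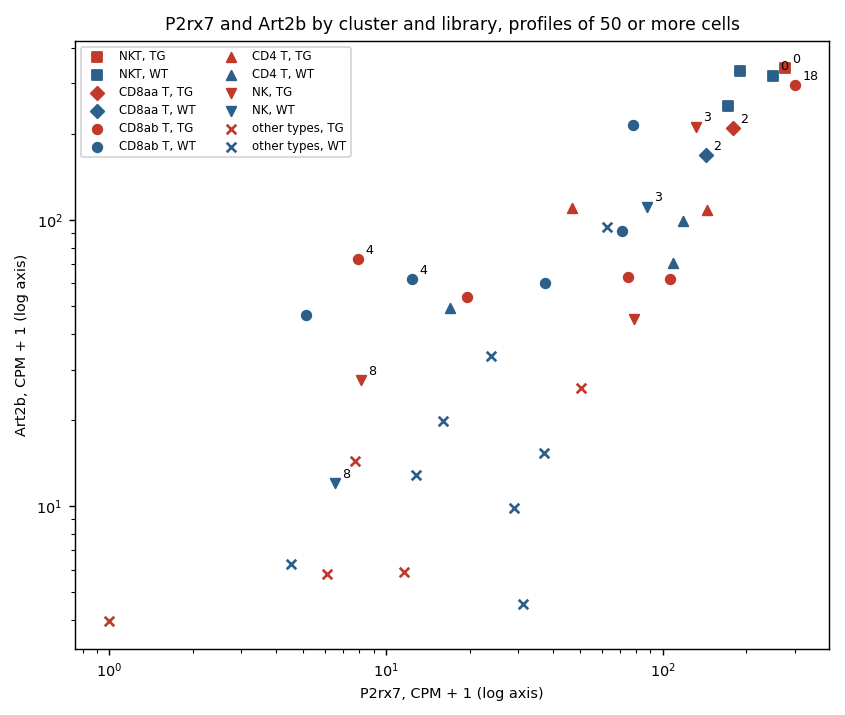
P2rx7 (x axis) against Art2b (y axis), both as CPM + 1 on log axes, in clusters with 50 or more cells of a library; red is TG, blue WT, and the symbols give the cell type. Clusters 0 (NKT), 2 (CD8αα) and 18 (CD8αβ) lie at the top right, whereas the CD8αβ cluster 4 keeps Art2b at 72.0 and 61.0 CPM with P2rx7 at 6.93 and 11.4 CPM.

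The clusters of CD8 T cells separated the members more sharply than the cell types did. In cluster 4, which carried the lymph node homing receptor Ccr7 at 204 CPM in TG cells and 258 CPM in WT cells, P2rx7 stood at 6.93 CPM (2.25 to 16.2) and 11.4 CPM (5.91 to 19.99). In cluster 18 of the CD8αβ T cells, which carried Itga1, the collagen-binding integrin of tissue-resident T cells, at 355 and 190.8 CPM, P2rx7 reached 299 CPM (249 to 357) and 191 CPM (111 to 306). Cluster 18 thus exceeded cluster 4 in P2rx7 by a log2 ratio of 5.43 in TG and 4.06 in WT, and in Art2b by 2.03 and 2.26. In TG its interval included the 276 CPM of cluster 0, the main NKT cluster, and in WT its level rests on 17 UMIs of 37 cells. Cluster 23, with 15 TG and 76 WT cells, held Art2b at 298 and 214 CPM, P2rx7 at 63.8 and 77.0 CPM, and Entpd1 at 85.1 and 154 CPM. In TG these levels rest on only 14, 3 and 4 UMIs, and in WT on 61, 22 and 44. The mixed proliferating cluster 7, which carried Mki67 at 1127 and 1035 CPM, held P2rx7 at 73.6 and 70.3 CPM and Art2b at 62.0 and 90.6 CPM. Ccr7, Itga1 and Mki67 were chosen to describe the clusters after their values were seen.

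**Figure D3:**
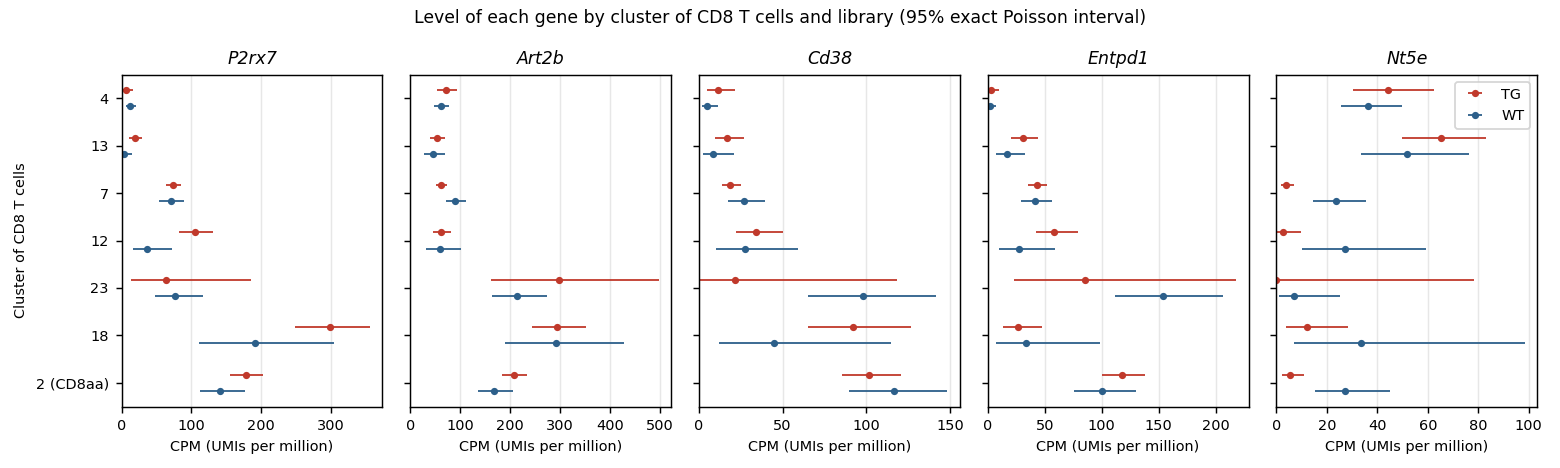
Level in CPM (x axis, from 0, own scale per gene) of the 5 genes in 6 clusters of CD8αβ T cells and in cluster 2, the CD8αα T cells (y axis), for TG (red) and WT (blue), with 95% exact Poisson intervals. Clusters 4 and 13 are low in P2rx7 and hold Nt5e at 36.2 to 65.0 CPM, and cluster 18 is highest in P2rx7 in both libraries.

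NK cells were divided in the same way. Cluster 3, with Itga1 at 516 CPM in TG cells and 492 CPM in WT cells, held P2rx7 at 131 CPM (107 to 158) and 86.4 CPM (67.6 to 109). Cluster 8, with Itga1 at 28.3 and 5.51 CPM and the T-box factor Eomes at 391 and 692 CPM, held P2rx7 at 7.08 CPM (1.93 to 18.1) and 5.51 CPM (1.502 to 14.1). Cluster 3 exceeded cluster 8 in P2rx7 by a log2 ratio of 4.21 in TG and 3.97 in WT, in Art2b by 2.99 and 3.32, in Cd38 by 1.19 and 1.29, and in Entpd1 by 0.74 and 1.17. In Nt5e the ratio was 3.71 (1.73 to 6.82) in WT, whereas in TG the clusters held 2 and 1 UMIs and the ratio was 0.52 (-3.75 to 6.40). Cluster 3 carried Cd3e at 1608 CPM in TG cells and 122 CPM in WT cells, and 95.1% of its TG and 67.6% of its WT cells held a UMI of Cd3d, Cd3e or Cd3g. A further NK cluster, 11, held 343 of the 759 TG cells and 22 WT cells, and 99.4% of its TG cells held such a UMI. In TG it held P2rx7 at 77.6 CPM, Art2b at 44.2 CPM and Entpd1 at 100.2 CPM.

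Cd38, which encodes the NAD-consuming glycohydrolase, was highest in immature B cells, while mature B and CD8αα T cells could not be ordered. Immature B cells held 155 CPM (133 to 178) in TG and 191 CPM (165 to 219.6) in WT, and mature B cells 90.8 CPM (80.9 to 102) and 127 CPM (116 to 139.7). Among T cells, CD8αα T cells were highest, at 102 CPM (85.5 to 121) and 116 CPM (89.6 to 149), followed by NKT cells at 58.9 and 55.4 CPM. CD8αβ T cells were at 25.1 and 23.5 CPM and CD4 T cells at 17.8 and 11.8 CPM. Cluster 5, at 8.36 and 3.83 CPM, had the least among the 9 types compared in both libraries, next to macrophages in TG at 9.80 CPM. In 27.3% of TG and 26.3% of WT CD8αα T cells a Cd38 UMI was seen, against 2.45% and 0.775% of cluster 5, and after thinning in 10.7% and 12.4%, against 0.490% and 0.

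Entpd1, which encodes CD39, was highest in cluster 5, the myeloid cells named monocyte that were rich in neutrophil genes. They held 426 CPM (376 to 482) in TG and 400 CPM (348 to 458) in WT, and 58.3% and 49.2% of these cells had a UMI, against 3.75% and 3.35% of mature B cells. After thinning these shares were 27.5% and 32.6%, against 1.03% and 1.47%. CD8αα T cells held 118 CPM (100.02 to 138) and 100 CPM (75.3 to 130.2), NK cells 118 and 71.0 CPM, and NKT cells 66.3 and 63.4 CPM. CD8αβ T cells were at 36.6 and 33.3 CPM, with 2 UMIs in cluster 4 of each library. The 192 WT γδ T cells held no Entpd1 UMI, an exact Poisson upper limit of 6.94 CPM.

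Nt5e, which encodes CD73, had another distribution. CD4 T cells held 28.4 CPM (18.2 to 42.3) in TG and 47.3 CPM (38.1 to 58.0) in WT, and CD8αβ T cells 20.9 CPM (17.2 to 25.2) and 31.3 CPM (25.4 to 38.2). In WT, NKT cells at 28.3 CPM, γδ T cells at 28.2 CPM, CD8αα T cells at 27.3 CPM and NK cells at 20.6 CPM could not be ordered among themselves. Their intervals also overlapped that of the WT CD8αβ T cells. In TG, NKT cells were at 6.80 CPM (3.51 to 11.9), CD8αα T cells at 5.28 CPM (2.12 to 10.9) and NK cells at 2.19 CPM (0.711 to 5.11), all under the intervals of CD4 and CD8αβ T cells. Within the CD8αβ T cells the Ccr7-bearing clusters were highest: cluster 13 held 65.0 and 51.7 CPM and cluster 4 held 44.3 and 36.2 CPM, where P2rx7 was low. Entpd1 was at 2.77 and 1.91 CPM in cluster 4 but at 31.0 and 16.5 CPM in cluster 13. Cluster 5 and plasmacytoid dendritic cells had 3 or fewer UMIs in either library. The 54 TG neutrophils held Nt5e at 29.7 CPM (14.2 to 54.6) on 10 UMIs, 60% of them in 3 cells. The 17 WT neutrophils held 0 UMIs, with an upper limit of 40.2 CPM.

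In the CD4 T cells, those with a UMI of Foxp3, the regulatory T cell factor, numbered 42 of 238 in TG and 77 of 734 in WT. Their Nt5e level was 65.1 CPM against 19.2 CPM in the other CD4 T cells of TG, and 122 CPM against 37.2 CPM in WT. Their Cd38 level was 59.2 against 7.40 CPM in TG, on 10 and 5 UMIs, and 13.1 against 11.6 CPM in WT, on 3 and 20. Their Entpd1 level was 59.2 against 22.2 CPM and 21.9 against 8.15 CPM, the latter on 5 and 14 UMIs. Cluster 21, in which 85.4% of TG and 89.2% of WT cells held Foxp3, carried Nt5e at 82.1 CPM (46.9 to 133) and 132 CPM (87.0 to 192). P2rx7 was at 148 against 111 CPM in TG, on 25 and 75 UMIs, and at 122 against 53.5 CPM in WT, on 28 and 92. Cells with a Foxp3 UMI were somewhat deeper, with medians of 3674 against 3145.5 UMIs in TG and 2712 against 2427 in WT.

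CD38 and CD73 were also stained on these CD8 T cell subsets by flow cytometry in the study, and the contrast of the subsets was computed here for the transcripts within each library. In TG, CD8αα exceeded CD8αβ T cells in Cd38 by a log2 ratio of 2.02 (1.67 to 2.38), Entpd1 by 1.69 (1.37 to 2.00), Art2b by 1.35 (1.12 to 1.57) and P2rx7 by 1.23 (0.99 to 1.46). Nt5e went the other way, at a log2 ratio of -1.99 (-3.33 to -0.90), on 7 UMIs in CD8αα and 111 in CD8αβ T cells. All 5 members were thus past a 2-fold difference in TG, whereas 18.2% of the 10051 genes with 20 or more UMIs were. In WT the log2 ratio was 2.31 (1.80 to 2.81) for Cd38, 1.78 (1.35 to 2.19) for P2rx7, 1.59 (1.09 to 2.07) for Entpd1, 0.92 (0.56 to 1.27) for Art2b and -0.20 (-1.09 to 0.59) for Nt5e. There 3 of 5 were past 2-fold, with 21.0% of 9183 genes, and the Nt5e interval included 0.

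**Figure D4:**
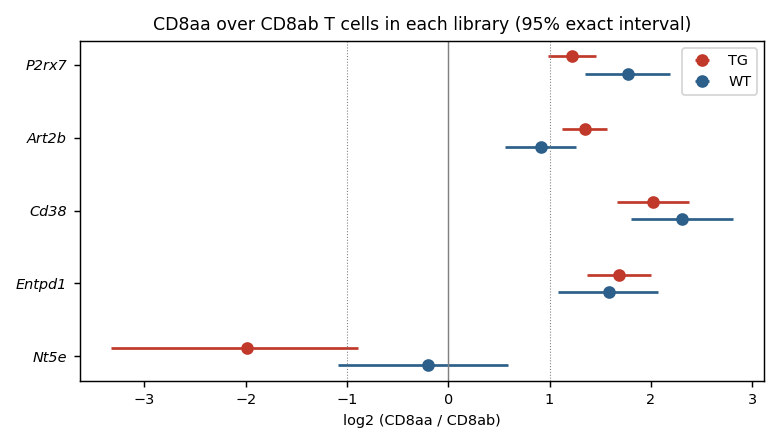
Log2 ratio of the CPM in CD8αα over CD8αβ T cells (x axis) for each gene (y axis) in TG (red) and WT (blue), with 95% exact intervals; dotted lines mark 2-fold. Cd38, Entpd1, Art2b and P2rx7 lie right of 0 in both libraries, and Nt5e lies left of 0 at -1.99 in TG and spans 0 in WT.

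The contrast depended on which CD8αβ T cells were counted. Without clusters 4 and 7 the log2 ratio in TG was 0.80 for P2rx7 and 0.96 for Art2b, both under 2-fold, and in WT 0.82 for Entpd1. In TG 95 of the 111 Nt5e UMIs of the CD8αβ T cells lay in the Ccr7-bearing clusters 4 and 13. Without these, a choice made after that was seen, the Nt5e ratio turned to 0.25 (-1.27 to 1.62) in TG, on 7 and 16 UMIs, and was 0.34 (-0.65 to 1.26) in WT, so the lower level of CD8αα T cells in TG held against all CD8αβ T cells but not against those outside the 2 clusters. The other ratios were then 0.76 for P2rx7, 1.18 for Art2b, 1.76 for Cd38 and 1.39 for Entpd1 in TG, and 0.94, 0.47, 1.501 and 0.74 in WT. Against cluster 4 alone, the CD8αα T cells of TG stood higher by a log2 ratio of 4.69 in P2rx7, 1.53 in Art2b, 3.201 in Cd38 and 5.41 (3.53 to 8.47) in Entpd1, on 2 Entpd1 UMIs in cluster 4, and at -3.07 in Nt5e. Within the WT CD8αα T cells, Nt5e was 29.98 CPM in those with a Trdc UMI and 25.3 CPM in the rest, on 7 and 8 UMIs. The TG cells without Trdc were at 5.58 CPM (2.24 to 11.5) on 7 UMIs, below both WT values. Their interval overlapped that of the WT cells without Trdc, which ran from 10.9 to 49.8 CPM. The part of Trdc in the Nt5e difference between the libraries was not tested.

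Of 59 other genes of the pathway that were listed, 44 were in the table. Between CD8αα and CD8αβ T cells of TG, 26 had 20 or more UMIs, of which 4 were past 2-fold higher and 4 past 2-fold lower, beside the 18.2% of all genes past 2-fold given above, and their median log2 ratio was 0.48 beside 0.15 over all genes. Higher were Enpp1 (1.67), an ectonucleotidase that acts on ATP, Slc28a2 (1.60), a concentrative nucleoside carrier, Ada (1.44), adenosine deaminase, and Adora2a (1.25), an adenosine receptor. Lower were Dpp4 (-1.76), the surface peptidase CD26, Adk (-1.72), adenosine kinase, Slc29a1 (-1.51), an equilibrative nucleoside transporter, and Nmnat2 (-1.25), an NAD synthesis enzyme. In WT 21 genes were measured, with 3 higher and 4 lower, beside 21.0% of all genes, and a median of -0.23 beside 0.14 over all genes. Adora2a was higher there at 1.57 together with Enpp4 (1.27) and Nadsyn1 (1.48), and Dpp4 (-2.58), Slc29a1 (-1.10) and Entpd7 (-1.08, interval -3.01 to 0.38) were lower, as was Adk at -3.59 (-8.91 to -1.06) on 1 UMI in CD8αα T cells. Adora2a, Dpp4, Adk and Slc29a1 were therefore past 2-fold in the same direction in both libraries.

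Between the genotypes, the member that differed most was Nt5e. In NKT cells it was at 6.80 CPM on 12 UMIs in TG and 28.3 CPM on 187 UMIs in WT, a log2 ratio of -2.06 (-3.04 to -1.22). Cd4 moved with it, since 75.8% of TG and 30.7% of WT NKT cells held a Cd4 UMI. Set apart after this was seen, the NKT cells with a Cd4 UMI were at -2.81 (-4.49 to -1.50) on 5 and 55 UMIs, and those without at -0.71 (-2.06 to 0.37) on 7 and 132, under 2-fold and with an interval that included 0. In CD8αα T cells the ratio was -2.37 (-3.90 to -0.99), on 7 and 15 UMIs, and in NK cells -3.23 (-4.94 to -1.86), on 5 and 33. The WT cells of both classes held the erythroid genes Hbb-bs and Hba-a1 at 2964 and 1067 CPM, against 0.755 and 1.31 CPM in TG, from 11 of 194 CD8αα and 25 of 615 NK cells. Without the cells holding such a UMI, a choice made after these levels were seen, Nt5e was at -2.13 (-3.72 to -0.67) on 7 and 12 UMIs, under the minimum of 20, and at -3.15 (-4.88 to -1.77) on 5 and 30. The NK classes also differed in makeup, since cluster 11 held 343 TG and 22 WT cells. Genes past 2-fold lower made up 2.71% of those measured in NKT cells, 2.46% in CD8αα T cells and 4.30% in NK cells, and genes past 2-fold in either direction 6.71%, 7.83% and 8.23%. In CD8αβ T cells Nt5e was at -0.58 (-0.99 to -0.17) and in CD4 T cells at -0.73 (-1.45 to -0.07), under 2-fold, where 7.20% and 8.69% of genes were past it. Counting mature B cells at -1.97, on 5 and 21 UMIs, and immature B cells at -1.26, on 7 and 14, Nt5e was past 2-fold lower in 5 of the 7 types in which it had 20 or more UMIs. This number was 3 without doublets, which removed mature B cells at -0.78 and immature B cells at -0.92, and 2 after thinning, when only NKT, CD4 and CD8αβ T cells kept 20 or more Nt5e UMIs. Thinned NKT cells were at -1.18 (-2.68 to 0.02) on 6 and 68 UMIs and CD4 T cells at -1.04 (-2.57 to 0.22) on 6 and 38, both with intervals that included 0. Thinned CD8αα T cells held 4 UMIs in each library, NK cells 1 and 12, mature B cells 1 and 7, and immature B cells 2 and 1, too few to give a direction for immature B cells.

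The clusters showed where the Nt5e difference lay. Of 10 clusters with 20 or more Nt5e UMIs, 8 were lower in TG, and in 5 the interval lay below 0. These were the NKT cluster 0 at a log2 ratio of -2.02, the CD8αα cluster 2 at -2.37, the NK cluster 3 at -3.83, the mixed proliferating cluster 7 at -2.66 (-3.96 to -1.48) and the CD4 cluster 9 at -2.43 (-4.12 to -1.09). Foxp3 moved with both, at 17.4 and 53.3 CPM in cluster 7 and 2.10 and 36.3 CPM in cluster 9. Without cells holding a Foxp3 UMI, left out after this was seen, Nt5e was at -4.69 (-7.84 to -2.64) on 2 and 19 UMIs in cluster 7 and -2.45 (-4.14 to -1.11) on 5 and 41 in cluster 9. Other markers moved as well, and their part was not tested. In cluster 7 Ncr1 was at 169 and 62.9 CPM and Ccr7 at 16.5 and 37.3 CPM. In cluster 9 Klrb1c was at 29.4 and 75.3 CPM. Clusters 0, 2 and 3 were not alike between TG and WT either. In cluster 0 Zbtb16 was at 42.3 and 104 CPM and Klrb1c at 469 and 826 CPM. In cluster 2 Trdc was at 95.1 and 855 CPM, and in cluster 3 Cd3e was at 1608 and 122 CPM. The 2 clusters that were not lower were the Ccr7-bearing CD8αβ clusters 4 at 0.29 (-0.43 to 1.01) and 13 at 0.33 (-0.36 to 1.06). The Foxp3-rich cluster 21 was at -0.69 (-1.68 to 0.26), with an interval that included 0.

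**Figure D5:**
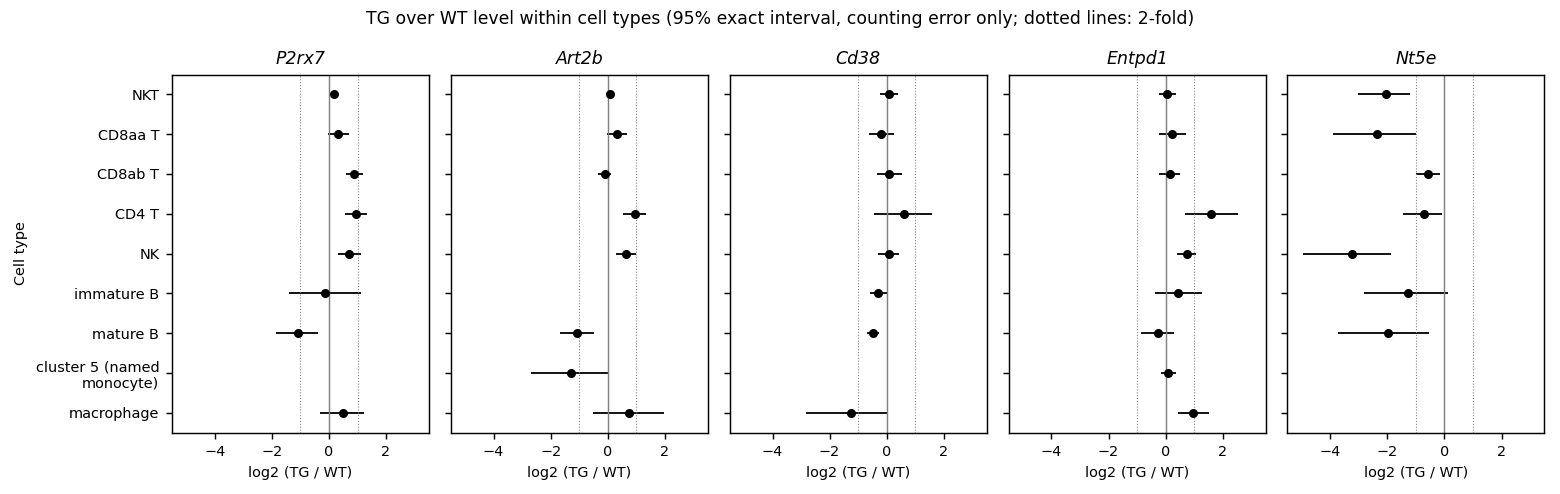
Log2 ratio of the TG over the WT level (x axis) of each gene in 9 cell types (y axis), with 95% exact intervals that cover counting error only; dotted lines mark 2-fold, and types with fewer than 20 UMIs are blank. Nt5e lies left of 0 in every type shown, and P2rx7 and Art2b in mature B cells lie left of 0 at -1.10 and -1.07 with doublets counted.

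P2rx7 was higher in TG CD8αβ T cells at 0.88 (0.59 to 1.18) and CD4 T cells at 0.94 (0.54 to 1.34), both under 2-fold. TG CD8αβ T cells were deeper, with a median of 4557 UMIs against 2996, and after thinning their ratio was 1.41 (0.76 to 2.10), past 2-fold, with P2rx7 in 7.55% and 2.81% of cells. Thinning also gives each cell equal weight, whereas CPM weighs cells by their UMIs. The change from 0.88 is therefore not a measure of depth alone. The makeup of these classes moved with the result, and its part in it was not tested. The low cluster 4 held 145 TG and 363 WT cells and the high cluster 18 held 115 and 37, while the low CD4 cluster 6, with P2rx7 at 45.9 and 16.0 CPM, held 58 and 397. Within single CD8αβ clusters the P2rx7 ratio was 2.17 (0.10 to 5.32) in cluster 13, on 18 and 2 UMIs, 1.52 (0.47 to 2.79) in cluster 12, 0.65 (-0.09 to 1.47) in cluster 18 and 0.07 (-0.35 to 0.50) in cluster 7. Cluster 23 was at -0.27 (-2.65 to 1.46), and cluster 4, under 20 UMIs, at -0.72 (-2.58 to 0.88). Markers moved within these clusters too. Between TG and WT cells of cluster 12, Klrb1c, of the NK and NKT list, was at 150 and 18.2 CPM. There Itga1 was at 120 and 41.0 CPM and Trdc at 250 and 100 CPM. In cluster 18 Klrb1c was at 26.7 and 213 CPM and Eomes at 4.86 and 168 CPM. The part of these in the ratios was not tested. In the CD4 T cells the ratio was 1.52 (0.09 to 2.83) in cluster 6, 0.41 (-0.08 to 0.89) in cluster 9 and 0.07 (-0.81 to 0.95) in cluster 21. In NKT cells, where most cells fell in cluster 0 in both libraries, P2rx7 was at 0.17 (0.02 to 0.31), Art2b at 0.07, Cd38 at 0.09 and Entpd1 at 0.06.

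The NK comparison of P2rx7 and Art2b turned with the cells admitted, whereas Entpd1 stayed above 0. P2rx7 was at 0.71 (0.32 to 1.11), Art2b at 0.64 and Entpd1 at 0.74 in all cells named NK. Among the 122 TG and 342 WT NK cells without a Cd3d, Cd3e or Cd3g UMI, a selection made after the Cd3e level was seen, P2rx7 was at -4.11 (-9.46 to -1.54) on 1 and 34 UMIs, Art2b at -1.40 on 5 and 26, and Entpd1 at 0.56 (-0.14 to 1.24). Nt5e was then at -1.19 (-4.44 to 1.08) on 2 and 9 UMIs, with an interval that included 0. These cells came from different clusters: 13 of the TG and 99 of the WT cells lay in the P2rx7-bearing cluster 3, and 107 and 226 in the low cluster 8. Of the 34 WT P2rx7 UMIs, 31 lay in cluster 3, and the part of this makeup in the ratio was not tested. Over all cells of cluster 3 P2rx7 was at 0.60 (0.15 to 1.05) and Art2b at 0.93 (0.55 to 1.31), and in cluster 8 P2rx7 had 4 UMIs in each library. Entpd1 was at 0.71 (0.29 to 1.14) in cluster 3 and 1.13 (0.47 to 1.82), past 2-fold, on 53 and 31 UMIs in cluster 8.

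In mature B cells P2rx7 was at -1.10 and Art2b at -1.07, where 4.75% of genes were past 2-fold. In WT, 45 of the 55 P2rx7 UMIs lay in the Cd3e-bearing cluster 17, and in TG 8 of 24. That cluster held 29 TG and 155 WT cells, with P2rx7 at 44.1 and 61.7 CPM, against 5.10 and 3.53 CPM in cluster 1. Without doublets the P2rx7 ratio was 0.64 and the Art2b ratio -0.21. In cluster 1 alone the P2rx7 ratio was 0.53 (-0.70 to 1.83) on 16 and 10 UMIs, with an interval that included 0. Cd38 was lower in TG mature B cells at -0.49 (-0.70 to -0.28), and in cluster 1 alone it was 90.6 against 136 CPM. In immature B cells, with 6.04% of genes past 2-fold, Cd38 was at -0.30 (-0.60 to -0.01).

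Entpd1 was past 2-fold higher in TG CD4 T cells, at 1.60 (0.68 to 2.54) on 25 and 19 UMIs, and at 0.95, under 2-fold, on 5 and 8 UMIs after thinning. In cluster 6, with 58 TG and 397 WT cells, it had 4 and 3 UMIs, and its ratio was 0.64 (-0.78 to 2.07) on 10 and 10 UMIs in cluster 9 and 0.94 (-0.62 to 2.66) on 11 and 6 in the Foxp3-rich cluster 21. The regulatory T list of Foxp3, Il2ra, Ikzf2 and Ctla4 moved with it, summing to 856 CPM in the TG class and 369 CPM in the WT class, and its part in the ratio was not tested. In macrophages Entpd1 was at 0.97 (0.42 to 1.52), under 2-fold, with 9.59% of genes past it, and 42.6% of the 54 TG UMIs came from 3 cells. By cluster Entpd1 was at 1.78 (0.98 to 2.59) on 29 and 28 UMIs in cluster 22, with 20 TG and 80 WT cells. In cluster 15 it was at 0.51 (-0.34 to 1.35) on 25 and 27 UMIs. Cd38 in macrophages was at -1.27 (-2.81 to 0.01) on 6 and 33 UMIs. Of the WT UMIs, 22 came from 23 cells of cluster 27, which held no TG cell, and in clusters 15 and 22, held by both libraries and set apart after this was seen, Cd38 was at 9.80 and 8.84 CPM, a log2 ratio of 0.15 (-1.57 to 1.71) on 6 and 11 UMIs. In cluster 5, where 10.6% of genes were past 2-fold, Entpd1 was 426 and 400 CPM and Art2b was at -1.28 (-2.70 to 0.01) on 8 and 17 UMIs.

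Over the 9 cell types the other pathway genes gave 194 ratios with 20 or more UMIs, of which 17 were past 2-fold higher in TG and 5 past 2-fold lower, 13 and 2 of them with intervals that did not include 0. These were 11.3% of the ratios, beside 4.75% to 10.6% of all genes in the single types. Of 24 measured in macrophages 6 were higher and 2 lower, beside 9.59% of all genes, and of 20 in CD8αα T cells 4 were higher, beside 7.83%. NK cells held 3 higher of 22, beside 8.23%, and cluster 5 2 higher and 1 lower of 12, beside 10.6%. In macrophages of clusters 15 and 22 alone, 3 of 23 were higher and 2 lower. Over the whole class the T cell list summed to 506 CPM in TG and 275 CPM in WT macrophages and the endothelial list to 145 and 37.2 CPM, and the platelet gene in the table was at 0 and 205 CPM. The part of these in the ratios was not tested. NKT cells held 1 higher, mature B cells 1 of each, CD4 T cells 1 lower, and CD8αβ T and immature B cells none. Slc28a2, the nucleoside carrier, was higher in CD8αα T cells (1.26), NK cells (1.10), cluster 5 (1.03) and macrophages (1.06), the last with an interval that included 0. Slc29a1, the equilibrative transporter, was higher in NK cells (1.24) and macrophages (1.23), and Entpd6, a relative of CD39, in CD8αα T cells (1.60) and macrophages (1.35). Nmnat2 was at 2.66 (0.60 to 5.81) in NK cells on 18 and 2 UMIs. Enpp4, an ectonucleotide hydrolase, was lower in TG in mature B cells (-1.32) and CD4 T cells (-1.09). Nampt, the rate-limiting enzyme of NAD salvage, was higher in TG in cluster 5 at 1.59 (1.08 to 2.13). The summed neutrophil genes of that cluster were also higher in TG, as given above, and their part in these ratios was not tested.

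Both capture libraries also held cells without a genotype name. There were 5379 in the first pool and 16829 in the second, and they could come from either mouse line of their pool. Of these, 2107 and 11872 carried T cell transcripts. In the first pool their Nt5e level was 17.7 CPM, beside 14.1 CPM in the named TG cells of the same gate, and in the second 28.8 CPM, beside 32.3 CPM in the named WT cells. In this T cell gate the Nt5e level of the unnamed cells thus stood near that of the named cells of their own library. The gate held unlike cells: in the second pool 8409 of the 11872 unnamed and 706 of the 3888 named cells held Cd8b1. Cells with B cell transcripts of the first pool held Nt5e at 6.20 CPM (3.88 to 9.38) unnamed and 2.43 CPM (1.05 to 4.79) named. In the second pool such B cells were at 5.57 and 4.09 CPM, and cells with myeloid transcripts at 7.26 and 2.68 CPM. P2rx7 was 114 CPM in the unnamed and 129 CPM in the named T cells of the first pool, but 22.3 CPM (20.9 to 23.7) in the unnamed and 155 CPM in the named T cells of the second. Among the T cells of the second pool that also held a UMI of Cd8b1, a gate added after these values were seen, the 8409 unnamed cells held P2rx7 at 11.4 CPM, Art2b at 82.5 CPM, Cd38 at 60.0 CPM and Entpd1 at 59.0 CPM. The 706 named WT cells of that gate held 66.7, 114, 30.4 and 41.0 CPM, so the unnamed cells were lower in P2rx7 and Art2b and higher in Cd38 and Entpd1. Nt5e was at 31.6 CPM (29.7 to 33.5) in the unnamed and 28.8 CPM (22.6 to 36.2) in the named cells of that gate.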

How the data were processed

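Liver CD45+ cells were profiled with the BD Rhapsody platform in 2 pooled captures. Reads were aligned, according to the labels and methods, to mm10 with STAR in the BD Rhapsody pipeline (version 1.9 per the file headers), and the deposited counts are UMI counts per gene and cell after error correction. The authors filtered cells and genes by rules not given in the sources used here, joined the libraries in Seurat and named clusters, cell types and genotypes; these names were used as deposited. The deposited percent of mitochondrial UMIs per cell (medians 5.14% in TG and 6.03% in WT) was computed by the authors. Normalized tables were not used. In the library files the 5 genes had the same counts in every named cell. UMIs were summed over the cells of each type or cluster in each library, and divided by the total; the 9 types compared held 109 to 2232 cells. Intervals are exact at 95%: Poisson for levels, Clopper-Pearson for shares and conditional binomial for ratios. A ratio needed 20 or more UMIs over both profiles, and types 50 or more cells in each library; past 2-fold was a description, not a test. Cells called by Scrublet (0.839% of TG and 3.31% of WT cells) or holding at least 2 UMIs each from B and T lineage genes stayed in, and were left out as an alternative (6.31% and 5.11%). Ratios and intervals were tested on simulated counts. The named genes are the 5 members, 59 other pathway genes, of which the 3 highest and 3 lowest CD8αα over CD8αβ ratios and those past 2-fold are given, and the genes most alike each member, of which the first is given (the first 3 for P2rx7 and Art2b). The members and lists were chosen with earlier results of these data known. Tools were Python 3.11.15, scipy 1.17.1, scanpy 1.11.5 and, for TMM scaling, edgeR 4.0.16.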

Additional observations from a re-analysis of the deposited data

How the results depend on the processing

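Scaling, cell weights, doublets, depth and single cells were varied. Of 305 alternative values for TG over WT ratios, 293 stayed within the counting interval, and of 90 for CD8αα over CD8αβ ratios, 83 did. The cell choices made after seeing the data, given below, are not in these counts. The settings included the counts of the library files, which were the same for the 5 genes, so those values could hardly move. Intervals on few UMIs were also wide, such as -3.90 to -0.99 for Nt5e in CD8αα T cells. A value that stayed within such an interval is a weak check. In mature B cells the P2rx7 ratio turned from -1.10 to 0.64 without doublets. In their main cluster 1 it was 0.53 (-0.70 to 1.83) on 16 TG and 10 WT UMIs, with an interval that included 0. In immature B cells the Nt5e ratio went from -1.26 to 1.07 after thinning to 1000 UMIs, on 2 TG and 1 WT UMIs, too few to give a direction. Without clusters 4 and 7, CD8αα over CD8αβ was 0.80 for P2rx7, 0.96 for Art2b and 1.46 for Cd38 in TG, and 1.58 for Cd38 and 0.82 for Entpd1 in WT. Without clusters 4 and 13, chosen after seeing the data, it turned from -1.99 to 0.25 for Nt5e in TG, and was 0.76 for P2rx7 in TG and 0.94 for P2rx7, 0.47 for Art2b, 1.501 for Cd38 and 0.74 for Entpd1 in WT. After thinning it was 2.06 for Entpd1 in TG and 2.97 for Cd38 in WT. The number of cell types past 2-fold between genotypes was 1 for P2rx7 (2 with equal cell weight and 2 with no minimum of UMIs), 2 for Art2b (1 with equal cell weight, 1 after thinning, 1 without the 3 fullest cells, 0 without doublets), 1 for Cd38 (0 with equal cell weight, 0 after thinning, 2 with no minimum), 1 for Entpd1 (0 after thinning) and 5 for Nt5e (2 after thinning, 3 without doublets, 3 without the 3 fullest cells). An equal count could rest on other cell types. For P2rx7 the type was mature B cells, lower in TG at -1.10, but after thinning CD8αβ T cells, higher at 1.41. For Art2b the types were mature B cells and cluster 5, lower in TG, but after thinning CD4 T cells, higher at 1.28. The share of genes past 2-fold ran from 4.75% to 21.0% over 11 comparisons, from 18.5% to 36.4% with a minimum of 1 UMI and from 1.68% to 12.8% with 100. NK cells without Cd3 UMIs, chosen after seeing the data, gave -4.11 for P2rx7, -1.40 for Art2b and -1.19 for Nt5e, with 13 of 122 TG and 99 of 342 WT cells from cluster 3. In macrophages of the clusters held by both libraries, also chosen after seeing the data, Cd38 turned from -1.27 to 0.15. Leaving out cells with erythroid UMIs moved none of the 9 ratios with 20 or more UMIs in CD8αα T and NK cells out of its interval. In NKT cells without a Cd4 UMI, chosen likewise, Nt5e was at -0.71, and in those with one at -2.81. Beyond doublets, thinning and cell choice the cause of these changes was not tested. No paired analysis was possible because each genotype had 1 library.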
